A study of Mus musculus with 24 samples.

Results

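Mitochondrial ribosomal protein genes were examined in cultured mouse embryos that had been exposed for 1 h to 40 µM 4-hydroperoxycyclophosphamide (4CP), an analogue of the anticancer drug cyclophosphamide that needs no activation by the liver. The genes were chosen by name. A probe belonged to the set if its annotation gave exactly 1 gene symbol and that symbol began with Mrpl or Mrps followed by a digit. The rule found 54 of 15360 probes and 48 of 6970 named genes, 35 Mrpl and 13 Mrps. A further 4 probes that list Mrps25 or Mrps6 together with another gene were left out.

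Treated embryos and untreated control embryos were both kept at 37 °C, and the RNA of each group was hybridised together, 1 per channel, on two-channel arrays. The labels name no strain, stage or number of embryos per RNA sample, and whole embryos mix many cell types, so fewer cells of a type and less RNA per cell cannot be told apart. The 24 array records came in 2 tables of 7680 probes each, from 2 platforms, and each table held 3 pairs of slides. Within a pair, the treated RNA was in channel 1 on the first slide and in channel 2 on its swapped partner, and each slide had 2 records. Titles number the pairs 1 to 3 without saying what a number stands for. Where the pairs are not separate cultures, the p-values reflect technical spread alone.

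Each deposited value was taken as a log ratio of 1 channel over the other, as judged from the values themselves. No source states their base; the highest value, 7.71, exceeds the log10 range of a 16-bit scanner, 4.82, which leaves base 2 or e. Each array was centred on its median, because array medians ran from -0.305 to 2.10. The treatment effect of a slide pair is the difference between the slide and its swapped partner, divided by 2, and the channel component is their sum divided by 2. With channel 1 as numerator, a positive effect stands for a higher RNA share in 4CP-treated embryos; with channel 2 as numerator, every sign turns. If the authors turned the swapped slides themselves, the channel component would be the treatment effect. Both are therefore given. Ratios carry no expression level, so no gene is called more or less abundant than another here.

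Mitochondria keep their own ribosomes, which translate the few messages of the mitochondrial genome into core subunits of the respiratory chain and ATP synthase. The ribosomal RNAs come from mitochondrial DNA, while every ribosomal protein is encoded in the nucleus, made in the cytosol and imported. Many of these proteins descend from bacterial ribosomal proteins, and others exist only in mitochondria. Embryos need mitochondrial translation as they build up respiration during organ formation.

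No mitochondrial ribosomal protein gene passed the test. With limma and Benjamini-Hochberg adjustment over all probes of a table, 0 of 32 probes in the first table (lowest adjusted p = 0.997) and 0 of 22 in the second (lowest adjusted p = 0.949) reached an adjusted p of 0.05. The background was the same, with 0% of all probes called in each table. At an unadjusted p under 0.05, 0 of the 32 and 0 of the 22 were reached, where 2.34% of all first-table probes and 5.22% of all second-table probes were. The 95% interval of the effect held 0 for each of the 54 probes, as that count of 0 requires. Its median reach on each side of the estimate was 0.116 log ratio units in the first table, a 1.08-fold difference in base 2 or 1.12-fold in base e. In the second table the reach was 0.0740, a 1.05-fold or 1.08-fold difference.

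The effects lay slightly to the positive side in the first table. Of 29 genes there, 22 had a positive mean effect, where 51.0% of all named genes did, and their median was 0.0267 against 0.00116 for all named genes. The second table had 12 of 21 positive, where 46.0% of all named genes were, with a median of 0.00943 against -0.00316. The first-table excess depended on scaling and on pairs: 17 of 29 genes were positive with arrays scaled to a common spread, 16 under quantile normalization and 16 without pair 2. The members' median was 0.00690 with scaled arrays and 0.00199 under quantile normalization, against 0.00147 and 0.00113 for all named genes. Of the 21 second-table genes, 7 were positive without pair 3 and 15 without pair 1. Without centring, the median of all named genes shifted to -0.123 and, for the second table, to -0.0560. Of members, 1 of 29 and 3 of 21 were then positive, where 2.29% and 4.47% of named genes were, so directions hold only relative to the median probe. Effects of single genes ran from -0.0969 to 0.134 and from -0.0604 to 0.108.

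The pairs did not share a direction. First-table members had median effects of -0.0149, 0.0351 and 0.0313 in pairs 1, 2 and 3, with 13, 19 and 20 of 29 genes positive. Over all named genes the medians were 0.0243, 0.00835 and -0.0101, so the members were below the typical gene in pair 1 and above it in pairs 2 and 3. Second-table members had medians of -0.0179, 0.00733 and 0.0150, with 7, 11 and 14 of 21 genes positive. All 3 pairs were positive for 3 of 29 genes in the first table, where 13.4% of named genes were, and all 3 were negative for 1, where 10.2% were. The second table had 2 of 21 positive in every pair against 9.72%, and 2 negative in every pair against 16.2%. None of these 4 shares exceeded its background.

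**Figure D1:**
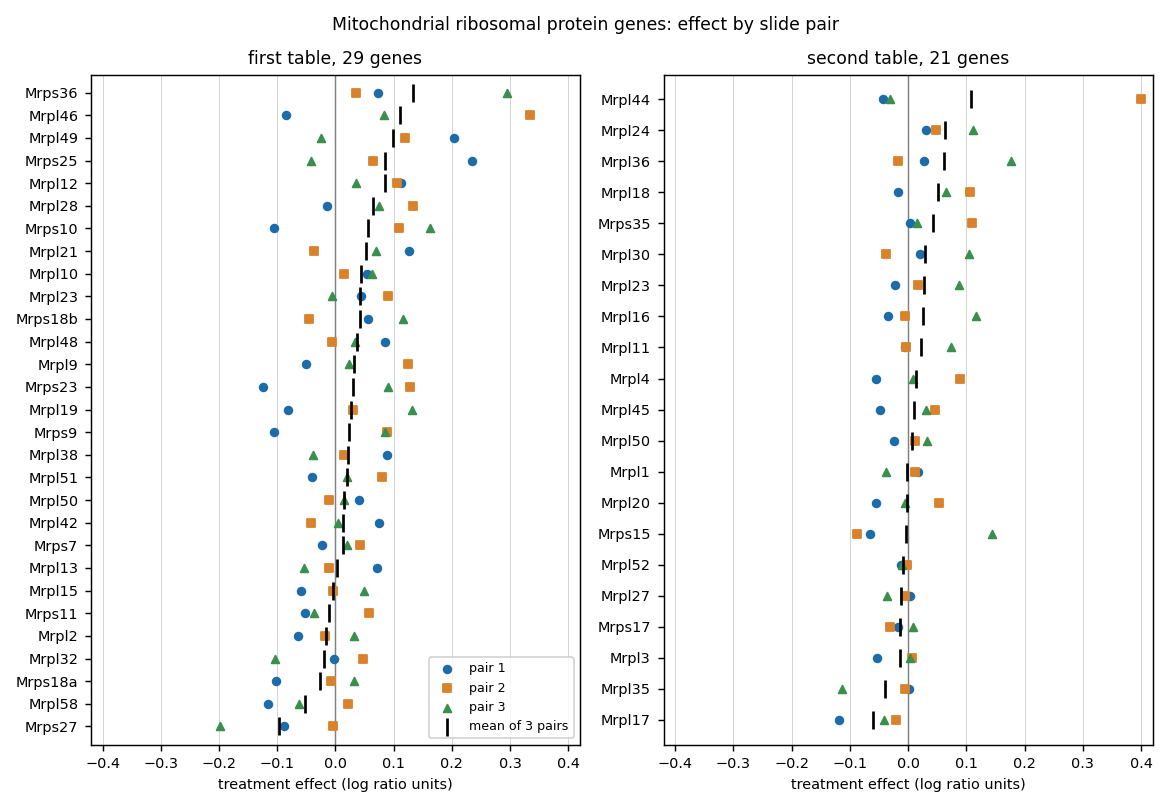
Treatment effect of each mitochondrial ribosomal protein gene in log ratio units, with 1 marker per slide pair and a bar for the mean of the 3 pairs; genes are ordered by that mean (first table, 29 genes; second table, 21 genes). The markers of most genes fall on both sides of 0, and means run from -0.0969 (Mrps27) to 0.134 (Mrps36) in the first table and from -0.0604 (Mrpl17) to 0.108 (Mrpl44) in the second.

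The stalk of the large subunit, which recruits translation factors, was represented by Mrpl10, its anchor, by Mrpl12, which also binds the mitochondrial RNA polymerase, and by Mrpl11 at its base. Mrpl12 had centred log ratios of -0.305, 0.241 and -0.614 on the slides of pairs 1, 2 and 3 with treated RNA in channel 1, and -0.530, 0.0314 and -0.685 on the swapped slides. Each slide lay above its partner, while the pairs themselves stood far apart, with pair 2 high and pair 3 low. The effect was 0.0845 ± 0.0425 (SD, n = 3; limma adjusted p = 0.997), with 0.113, 0.105 and 0.0356 by pair, and both records of every slide pair gave a positive effect, from 0.0176 to 0.159. Mrpl10 was also positive in every pair, at 0.0534, 0.0138 and 0.0633, a mean of 0.0435 ± 0.0262. With the trend of effect on channel component removed within each pair, Mrpl10 had -0.0381 in pair 1 and a mean of 0.0153. Mrpl12 then stayed positive in every pair, at 0.00812 in pair 1. Mrpl11, on the second table, had -0.00522, -0.00442 and 0.0742.

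Of the large-subunit proteins around the exit of the peptide tunnel, Mrpl23 and Mrpl24 correspond to bacterial proteins at that exit, Mrpl17 sits close by, and Mrpl45 is the mitochondrial protein that faces the inner membrane there. Mrpl24 was the second-table member with the lowest unadjusted p (limma p = 0.0745, adjusted p = 0.949). Its slide values were -0.272, 0.255 and -0.670 with treated RNA in channel 1 and -0.333, 0.158 and -0.893 on the swapped slides. The effect was thus positive in each pair, at 0.0302, 0.0486 and 0.112, a mean of 0.0636 ± 0.0428 (SD, n = 3). The second record alone gave -0.00558, -0.0211 and 0.104 in pairs 1, 2 and 3, so the sign in pairs 1 and 2 rested on the first record.

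Mrpl17 went the other way in the same table. Its slides read -0.523, 0.150 and -0.684 with treated RNA in channel 1 against -0.285, 0.192 and -0.602 after the swap. Each slide was below its partner, for effects of -0.119, -0.0211 and -0.0409 and a mean of -0.0604 ± 0.0519 (SD, n = 3; limma adjusted p = 0.949), and each record of each pair was negative. Mrpl45 had effects of -0.0488, 0.0462 and 0.0309. The 2 neighbours Mrpl24 and Mrpl17 therefore had opposite signs in every pair, and neither passed the test.

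Mrpl23 and Mrpl50, a mitochondria-specific protein, were the 2 genes with a probe in each table. Mrpl23 had effects of 0.0434, 0.0901 and -0.00644 on the first-table platform and -0.0223, 0.0171 and 0.0871 on the other. The means were 0.0423 ± 0.0483 and 0.0273 ± 0.0554 (SD, n = 3 each), both smaller than their spread. Mrpl50 had 0.0395, -0.0105 and 0.0153 in the first table, a mean of 0.0148 ± 0.0250, and -0.0239, 0.0122 and 0.0322 in the second, a mean of 0.00682 ± 0.0284.

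Probes of the same gene gave a measure of agreement within a table. For Mrpl15, a core protein with a bacterial counterpart, one probe had -0.229, 0.0191 and 0.0251 in pairs 1, 2 and 3 and the other 0.110, -0.0266 and 0.0727. Their signs differed in pairs 1 and 2, and their channel components were 0.194 and -0.409, of opposite sign. The probes of Mrps7, which organises the head of the small subunit, had -0.0394, 0.0179 and 0.00186 (mean -0.00654 ± 0.0296) and -0.00739, 0.0664 and 0.0368 (mean 0.0319 ± 0.0371, SD, n = 3), with the same signs in every pair. For the mitochondria-specific Mrpl48 they had 0.119, 0.0352 and -0.0277 (mean 0.0421 ± 0.0735) and 0.0509, -0.0467 and 0.0943 (mean 0.0328 ± 0.0722), with the same sign in pair 1 alone. Mrps17, a small-subunit protein that binds ribosomal RNA, had -0.00584, 0.0285 and 0.0425 (mean 0.0217 ± 0.0249) and -0.0300, -0.0925 and -0.0262 (mean -0.0495 ± 0.0372) in the second table, again with the same sign in pair 1 alone.

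Among small-subunit genes, Mrps36 had the largest mean effect and the lowest unadjusted p of the first-table members (limma p = 0.0566, adjusted p = 0.997). Despite its name, the Mrps36 protein is known as a subunit of the oxoglutarate dehydrogenase complex of the citric acid cycle. Its slides read -0.222, 0.120 and -0.0676 with treated RNA in channel 1 and -0.367, 0.0493 and -0.656 on the swapped slides, so the gap was widest in pair 3. Effects were 0.0726, 0.0351 and 0.294, with a mean of 0.134 ± 0.140 (SD, n = 3). In pair 3 the first record gave 0.655 and the second -0.0669, and over the 3 pairs the second record alone gave a mean of -0.0109. With the trend of effect on channel component removed, the Mrps36 effect in pair 1 was -0.00382.

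Mrps27, a small-subunit protein with RNA-binding repeats, was the only first-table member below 0 in every pair. On the slides with treated RNA in channel 1 it had -0.00877, -0.217 and -0.283, and on the swapped slides 0.169, -0.211 and 0.114. The values of pair 2 were nearly equal and those of pairs 1 and 3 lay apart. Effects were -0.0886, -0.00343 and -0.199, a mean of -0.0969 ± 0.0978 (SD, n = 3; limma adjusted p = 0.997). With the trend of effect on channel component removed, the Mrps27 effect in pair 2 was 0.0402. Mrps35, also of the small subunit, was the other second-table gene positive in every pair, at 0.00366, 0.110 and 0.0150. Mrps15, which binds small-subunit ribosomal RNA, varied most among small-subunit genes of that table, at -0.0662, -0.0886 and 0.145. Mrps10, in the head of the subunit, went from -0.106 in pair 1 to 0.110 and 0.163 in pairs 2 and 3.

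**Figure D2:**
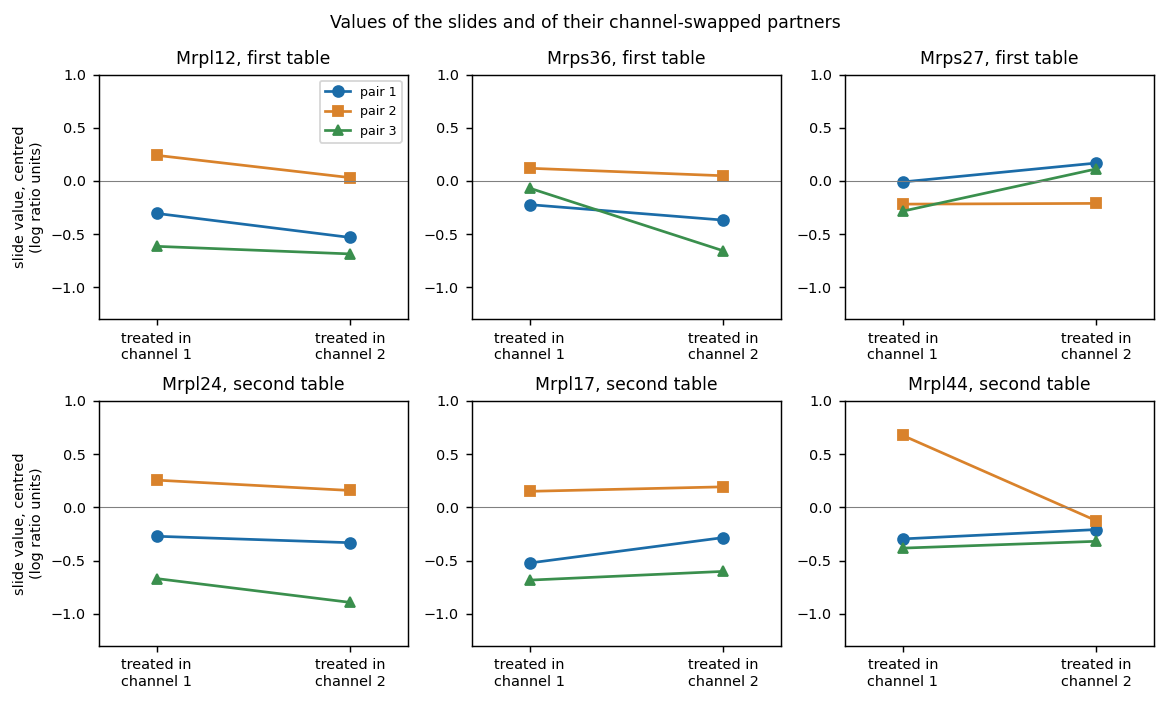
Centred log ratio of 6 members on each slide with treated RNA in channel 1 and on its channel-swapped partner, each slide the mean of 2 records, with a line per slide pair. A line that falls to the right is a positive effect; all 3 lines fall for Mrpl12, Mrps36 and Mrpl24 and all 3 rise for Mrps27 and Mrpl17, while 1 line of Mrpl44 (pair 2, from 0.675 to -0.126) falls and the others rise.

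The 3 largest effects of a gene in a single pair each came from 1 record. Mrpl44, a protein with a ribonuclease III fold at the side of the large subunit, had 0.400 in pair 2 and -0.0439 and -0.0319 in pairs 1 and 3. Its first record of pair 2 gave 0.727 and its second 0.0742. Mrpl46, a large-subunit protein with a Nudix-like fold, had 0.334 in pair 2 of the first table, from 0.689 in the first record and -0.0211 in the second. Mrps36 in pair 3, given above, was the third of these. Without pair 2 the mean effect of Mrpl44 was -0.0379 and that of Mrpl46 -0.00125, against 0.108 ± 0.253 and 0.111 ± 0.211 (SD, n = 3) over all pairs.

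The other first-table members with a bacterial counterpart were Mrpl2, Mrpl9, Mrpl13, Mrpl19, Mrpl21, Mrpl28, Mrpl32, Mrps9, Mrps11, Mrps18a and Mrps18b, with means from -0.0258 (Mrps18a) to 0.0638 (Mrpl28). Mrps18a is assigned to the large subunit despite its name. Mitochondria-specific members not yet described were Mrpl38, Mrpl42, Mrpl49, Mrpl51, Mrpl58, Mrps23 and Mrps25. They ran from -0.0522 for Mrpl58, a peptidyl-tRNA hydrolase built into the ribosome, to 0.0995 for Mrpl49. In the second table the remaining genes were Mrpl1, Mrpl3, Mrpl4, Mrpl16, Mrpl18, Mrpl20, Mrpl27, Mrpl30, Mrpl35 and Mrpl36, all with bacterial counterparts, from -0.0390 (Mrpl35) to 0.0618 (Mrpl36).

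Mrpl52, a mitochondria-specific protein of the large subunit, had -0.0128, -0.00239 and -0.0102 in the second table, a mean of -0.00847 ± 0.00542 (SD, n = 3). Its sign turned with the record: the first record gave -0.0443, -0.0794 and -0.0239 and the second 0.0186, 0.0746 and 0.00350. Among the 8 members with the same sign in every pair, Mrpl12 and Mrpl17 were the 2 with that sign in both records of every pair. The share of all named genes with 1 sign in both records of every pair was not computed, so that count has no background. With the trend of effect on channel component removed, Mrpl10, Mrps36, Mrps27 and Mrpl52 no longer had 1 sign in every pair. Others gained 1 sign: Mrpl58 was then negative in every pair, and Mrps25 and the second-table probes of Mrpl23 and Mrpl50 were positive in every pair.

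Medians by subunit and by ancestry lay close together. In the first table the 19 large-subunit genes by name had a median effect of 0.0267 with 15 positive, and the 10 small-subunit genes a median of 0.0267, with 7 positive. By pair, the large subunit had 0.0395, 0.0210 and 0.0235 and the small subunit -0.0708, 0.0498 and 0.0585, furthest apart in pair 1. With the trend of effect on channel component removed, the pair 1 medians were -0.0591 for the large and -0.0647 for the small subunit. The 17 genes with a bacterial counterpart had a median of 0.0267 and the 12 mitochondria-specific genes 0.0261. Second-table medians were 0.0117 for 18 large-subunit and -0.00342 for 3 small-subunit genes, and 0.00565 for 16 bacterial-type and 0.00943 for 5 mitochondria-specific genes. The differences between these groups were not tested.

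Promoter sequence is a feature the choice by name did not use. Of the 48 genes, 42 had a promoter entry in RefSeq (mouse build GRCm38.p6), and the 250 bases before each start were searched on both strands. The letters CCGGAAG, a core recognised by ETS factors such as the nuclear respiratory factor GABP, were found for 10 of 42 members. That is 23.8%, against 10.2% of 17491 protein-coding genes. Counted by promoter window, they were in 10 of 47 member windows, or 21.3%, against 6.91% of all 32851. The palindrome of the nuclear respiratory factor NRF1, spelled in capitals in the Mrpl9 and Mrpl32 stretches printed here, was found for 2 members (Mrpl9 and Mrpl32). That is 4.76% against 1.21% of coding genes, and 4.26% of member windows against 0.782% of all windows. AAGATGGC, a YY1-type element, was found for 3 (Mrpl32, Mrpl36 and Mrps11), 7.14% against 1.77% by gene and 6.38% against 1.56% by window. TATAAA was found for 4, 9.52% against 13.7% by gene and 8.51% against 12.4% by window. None of these letter strings overlaps another in the stretches shown here.

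The stretches shown belong to the 3 genes with negative effects in every pair and to the 2 genes with the NRF1 palindrome. Each of the 3 holds CCGGAAG, but Mrps27 and Mrpl52 were negative in every pair only in the mean of their records. Of the 5 genes positive in every pair (Mrpl10, Mrpl12, Mrps36, Mrpl24 and Mrps35), 4 had a promoter entry and 0 of those held CCGGAAG. Mrpl12 alone of these 5 was positive in both records of every pair. Among genes with mixed signs, 7 of the 35 with a promoter entry held it. This set of genes was singled out after their values were seen, and the letters are a description, not a test. Capitals mark the match, in the gene's own direction (CTTCCGG is CCGGAAG on the opposite strand):
Mrps27, chr13:99344713-99344769, plus strand: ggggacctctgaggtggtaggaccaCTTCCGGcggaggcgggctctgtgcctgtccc
Mrpl17, chr7:105811293-105811337, minus strand: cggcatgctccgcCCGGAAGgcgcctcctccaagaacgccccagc
Mrpl52, chr14:54426837-54426893, plus strand: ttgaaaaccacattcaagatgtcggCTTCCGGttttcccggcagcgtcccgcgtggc
Mrpl9, chr3:94443283-94443335, plus strand: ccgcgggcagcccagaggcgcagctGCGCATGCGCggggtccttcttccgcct
Mrpl32, chr13:14613090-14613149, minus strand: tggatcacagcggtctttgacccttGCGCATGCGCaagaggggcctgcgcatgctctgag

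The matches begin 48 bases before the start in Mrps27, 47 in Mrpl52, 28 in Mrpl9, 87 in Mrpl32 and 237 in Mrpl17. The members with the NRF1 palindrome had effects of -0.0509, 0.125 and 0.0235 (Mrpl9) and -0.00223, 0.0475 and -0.104 (Mrpl32), each with mixed signs.

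Other genes of mitochondrial gene expression were read from a list. It held mitochondrial ribosome proteins under other names, translation factors, aminoacyl-tRNA enzymes, assembly factors and mitochondrial DNA maintenance and transcription genes. Of 26 first-table genes and 23 second-table genes on it, 0 passed in either direction (limma, lowest adjusted p = 0.997 and 0.949). Mean effects were positive for 10 of 26 and 7 of 23, where 51.0% and 46.0% of all named genes were, with medians of -0.0248 and -0.00939. Every pair was positive for 2 and negative for 3 of the 26, against 13.4% and 10.2% of named genes, and positive for 2 and negative for 4 of the 23, against 9.72% and 16.2%. Guf1, an elongation factor that backs up mitochondrial ribosomes, was negative in every pair of both tables, at -0.0405, -0.0487 and -0.0517 and at -0.0887, -0.0465 and -0.00589. Gfm2, which recycles ribosomes, had 0.0467, 0.0340 and 0.0919, and Gfm1, which moves the ribosome along the message, had -0.0176, -0.0605 and -0.0188.

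Slirp, which stabilises mitochondrial messages, had -0.0314, -0.0361 and -0.162 in the second table, a mean of -0.0766 ± 0.0742 (SD, n = 3). Lonp1, a matrix protease, and Mtg1, a ribosome assembly GTPase, were negative in every pair at means of -0.0344 ± 0.0144 and -0.0528 ± 0.0671. Mrm3, which methylates large-subunit ribosomal RNA, had 0.0916 ± 0.109 in the first table and was positive in every pair. So were, in the second table, Mtif2, the initiation factor, at 0.0107 ± 0.0111 and Wars2, which charges mitochondrial tryptophan tRNA, at 0.0192 ± 0.0211. In the first table Mtif2 had mixed signs, at -0.00751, 0.0967 and -0.0590. Qrsl1, a subunit of the enzyme that makes glutaminyl-tRNA, was negative in every pair at -0.0505 ± 0.0793 in the first table. Dap3, a GTP-binding protein of the small subunit that does not carry an Mrps name, had -0.139, 0.0107 and -0.0860.

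Cytosolic ribosomal proteins and subunits of oxidative phosphorylation gave other patterns over the pairs. In the first table, 33 cytosolic ribosomal protein genes had median effects of 0.184, 0.0498 and 0.0186 and 26 oxidative phosphorylation genes 0.0811, 0.0343 and -0.0109. Both were highest in pair 1, where mitochondrial ribosomal protein genes were lowest. With the trend of effect on channel component removed, pair 1 was the lowest for all of these lists. Its medians were then 0.0210 (cytosolic ribosomal), -0.0115 (oxidative phosphorylation) and -0.0592 (mitochondrial ribosomal). On the other platform, 57 cytosolic genes had 0.0298, -0.0460 and 0.00122 and 38 oxidative phosphorylation genes -0.00745, 0.00924 and 0.00331. The differences between lists were not tested.

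**Figure D3:**
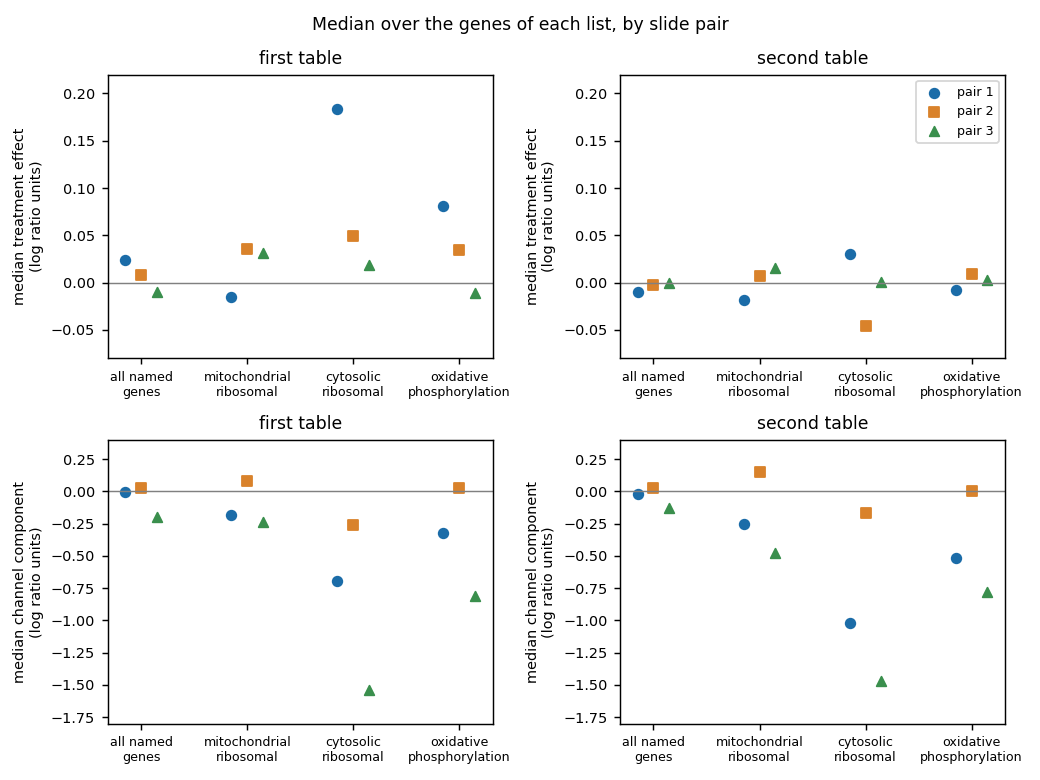
Median treatment effect (upper row) and median channel component (lower row) in log ratio units for all named genes and 3 gene lists, with 1 marker per slide pair; the left column is the first table and the right column the second. Mitochondrial ribosomal protein genes have medians between -0.0179 and 0.0351 in the upper row, and channel components between those of all named genes and cytosolic ribosomal protein genes in pairs 1 and 3 of both tables.

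The channel component of the members was larger than their treatment effect and followed the same order over the pairs in both tables. Its median was -0.185, 0.0844 and -0.235 for first-table pairs 1, 2 and 3, and -0.253, 0.151 and -0.475 for those of the second table. Its mean over pairs was negative for 20 of 29 members, where 55.7% of all named genes were, and for 18 of 21, where 59.5% were. Over all named genes the medians were -0.00802, 0.0230 and -0.196, and -0.0185, 0.0272 and -0.127. Across genes, which are not independent replicates, the members' channel components correlated between pairs with r from 0.667 to 0.812 over 29 genes and from 0.417 to 0.825 over 21, against 0.214 to 0.768 and 0.0888 to 0.870 over all named genes. Their treatment effects correlated with r from -0.205 to 0.165 and from -0.270 to 0.224, against -0.119 to 0.0335 and -0.0714 to 0.139 over all named genes.

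Mrps25, a mitochondria-specific small-subunit protein, had the lowest channel component of all members, at -0.658, -0.392 and -1.42, and was singled out after its values were seen. When swapped slides were not turned, the reading for values already in the form treated over control, it was the 1 of 32 member probes past the threshold, at -0.823 (limma adjusted p = 0.0379), where 2.85% of all first-table probes passed. It also passed with treated RNA in channel 2 alone, at 0.909 (adjusted p = 0.00538), again as 1 of 32, where 8.70% of all probes passed, but not in channel 1 alone, at -0.738. The share of members past the threshold was near the first of these backgrounds and below the other. With the turn its slide values were -0.423, -0.328 and -1.46 against -0.893, -0.455 and -1.38, and its effect was 0.0852 ± 0.140 (SD, n = 3; adjusted p = 0.997). Probes that name Mrps25 together with Nr2c2 were not used.

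In pair 1 of the first table the members' effect moved with their channel component. The correlation across the 29 genes was -0.777, against -0.444 over all named genes, while in pairs 2 and 3 it was 0.129 and 0.271. The 2 records of pair 1 gave the members' effects with r = 0.850, against 0.575 over all named genes. In pairs 2 and 3 the members' r between records was -0.0404 and 0.0568, against 0.274 and 0.499 over all named genes. Each of these r values includes a member with 1 outlying record. These were Mrpl46 in pair 2 (0.689 and -0.0211) and Mrps36 in pair 3 (0.655 and -0.0669). No r was computed without them, so agreement between records of the other members is not shown. Second-table members had r = 0.130, 0.299 and 0.498 between records. With the trend of effect on channel component removed within each pair, 19 of 29 members were positive, where 50.5% of all named genes were, with a median of 0.0153, and 14 of 21 in the second table, where 50.5% were, with a median of 0.0148.

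**Figure D4:**
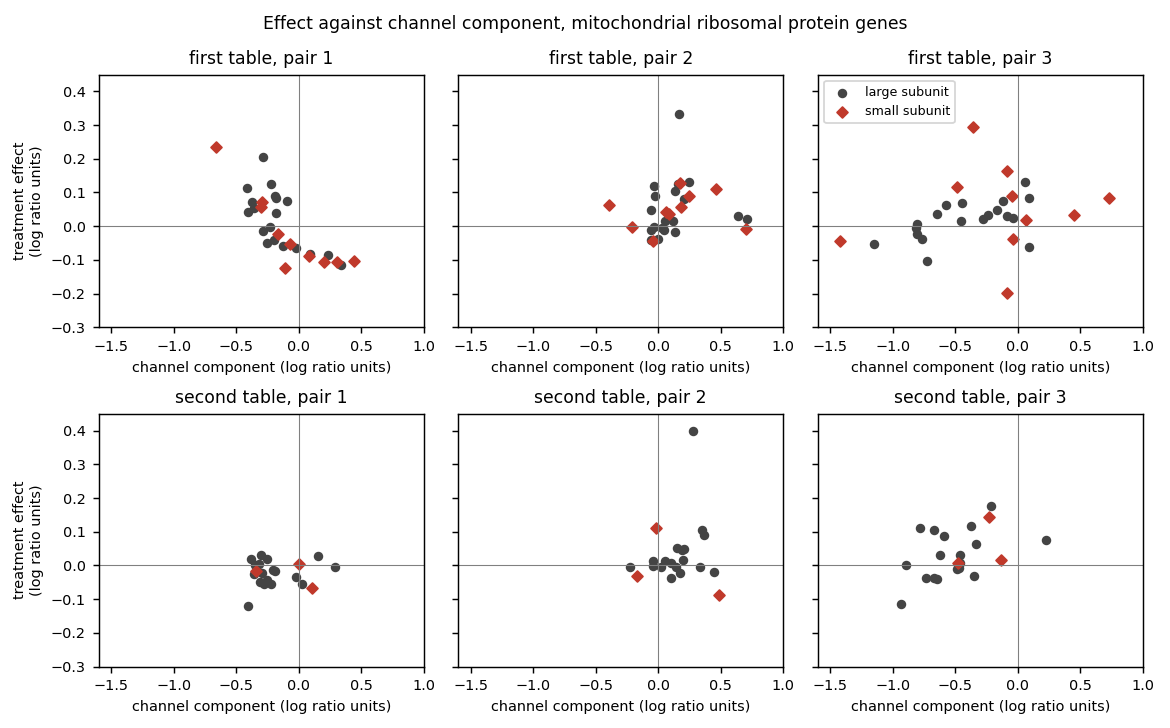
Treatment effect against channel component, both in log ratio units, for each mitochondrial ribosomal protein gene in each slide pair; circles are large-subunit and diamonds small-subunit genes by name, with the first table in the upper row. In pair 1 of the first table the points fall from upper left to lower right (r = -0.777 across 29 genes), a slope not seen in the other panels, where r runs from 0.0914 to 0.440.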

How the data were processed

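The deposited values are other than counts: log ratios of the channels of each array, judged from the values, since neither the labels nor the file headers state the base, the numerator or any normalization by the authors. Spot intensities and the authors' software were not used here, so dim probes could not be filtered; no value was missing. Arrays were centred on their median, the 2 records of a slide averaged, and the 3 pair effects of each probe tested against 0 with limma 3.58.1 (lmFit, eBayes) in R 4.3.3, within each table, with Benjamini-Hochberg adjustment over 7680 probes. Slides with the same pair number deviated together (r from 0.473 to 0.930 across probes), so the pair number was kept as the unit. In first-table pair 1 that r, 0.473, was close to the highest r with a slide of another number, 0.425.

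Probes with several symbols (227 and 275) or none (2704 and 2470) were not named. All 32 and 22 member probes matched the RefSeq gene table. Gene medians rest on the mean of a gene's probes. The fit was tested on simulated data. Members and lists were chosen with earlier results of these data known. Values by pair are given for genes in both tables, genes with several probes and genes with the same sign in all pairs. The 2 most variable genes of each table are given likewise. Outside these rules, Mrpl11 and Mrpl45 are given for their place in the subunit, and Mrpl9 and Mrpl32 for the NRF1 palindrome. Mrps25 is given for its channel component. Alternatives covered pairs, centring, scaling, the turn of swapped slides, orientation, records and the channel trend.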

Additional observations from a re-analysis of the deposited data

Results flagged for a closer look

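In groups of 6 arrays of the same orientation, 2 of 108 groups held an array far from the others, where chance flags about 1 in 20 groups of independent arrays. These arrays were not independent, since 6 arrays are 3 slides with 2 records each, so that rate is only a guide. For Mrpl44, the first record of pair 2 with treated RNA in channel 1 read 1.29, and the other arrays lay between -0.455 and 0.0577; its gap was 0.707 of the whole range. For Mrpl46, the first record of pair 2 with treated RNA in channel 2 read -0.751 against -0.00353 to 0.421 in the others, a gap of 0.638 of the range.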

How the results depend on the processing

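Leaving out 1 pair gave 24 to 30 probes past the threshold among all first-table probes and 0 to 58 in the second (40 without pair 1, 58 without pair 2), against 0 with all pairs; none was a member. The second-table member median ran from -0.00488 to 0.0334. Values as deposited gave 33 probes and 1 probe, member medians of -0.0972 and -0.0434, and channel medians of 0.324 and 1.14. Without the turn of swapped slides, 219 first-table probes passed, 1 of them a member, and the medians were -0.107 and -0.229. Treated RNA in channel 1 alone gave 174 first-table probes and medians of -0.0938 and -0.202; channel 2 alone gave 668, 1 of them a member, and medians of 0.115 and 0.232. The cause was not tested. The fit on single arrays with no replicate block called 0 probes in each table, as did the fit with the pair number as a replicate block, and their member medians stayed at 0.0267 and 0.00943. Signs of 4 to 7 of 29 and 3 to 7 of 21 members changed when a pair was left out. Scaling, quantile normalization, either record alone and removal of the channel trend called 0 probes. Spot intensities were not used here, so a filter on dim probes was not run. The number of slide pairs, 3 per table, limits the precision.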
